A study of Mus musculus with 4 samples.

Results

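The genes described here are the mouse zinc finger protein genes numbered Zfp600 to Zfp999, chosen by their symbol alone. They make up 139 of the 34315 rows of a table of read counts per gene, and 2 of these rows join a pair of symbols (Rslcan18 with Zfp708, and Zfp783 with Zfp956). Messenger RNA was selected by its polyA tail and sequenced from haematopoietic stem cells, the self-renewing marrow cells from which every blood lineage derives. The cells were sorted fresh as side population cells with the KSL-CD150+ surface phenotype. One arm is labelled Dnmt3a-KO, that is, lacking the de novo DNA methyltransferase Dnmt3a, and enters only as the authors' mean count over 4 columns. The other arm is wild type, strain C57BL/6, with 4 libraries labelled as technical replicates of 1 biological replicate, while the series design speaks of duplicates. The age of the mice, the strain of the knockout-labelled arm, the deleted part of Dnmt3a and the means of deleting it are not stated in the labels or design.

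Most of these genes encode DNA-binding proteins built from rows of C2H2 fingers, short loops each held around a zinc ion by paired cysteines and histidines. Many also carry a KRAB domain, which recruits the corepressor Trim28 and through it the histone methyltransferase Setdb1 and the heterochromatin proteins Cbx1, Cbx3 and Cbx5. KRAB zinc finger proteins are best known for keeping transposable elements silent, and their genes lie in runs that arose by tandem duplication.

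The 4 wild-type libraries held 40709659, 40798800, 47408552 and 47365062 counts, and the mean of the knockout-labelled arm summed to 41930966.75. Dnmt3a itself stood at 8424 normalised counts in the knockout-labelled arm, against 8229, 8569, 5400 and 5208 in the wild-type libraries. This level does not check the label, because transcripts that lack the deleted part can still be counted. All 8 haematopoietic stem cell markers examined exceeded 100 normalised counts in wild type. Their summed share of the counts was 0.255% in the knockout-labelled arm and 0.321% to 0.379% in the wild-type libraries. Granulocyte markers, with 6 of 6 present, held 0.0438% in the knockout-labelled arm, against 0.0895% and 0.0881% in wild-type libraries 1 and 2 and 0.0122% and 0.0124% in libraries 3 and 4. The 4 erythroid markers held 0.000718% in the knockout-labelled arm and 0.00553% to 0.00754% in wild type, and the 4 megakaryocyte markers held 0.00929% in the knockout-labelled arm and 0.0458% to 0.0556% in wild type. The 3 mast cell markers held 0.000139% in the knockout-labelled arm and 0.00195% to 0.00301% in wild type. The 5 lymphoid markers held 9.36e-05% in the knockout-labelled arm, where 2 of them had 0 reads, and 0.000208% to 0.000382% in wild type. The 4 stromal and endothelial markers held 0.00493% in the knockout-labelled arm and 0.0082% to 0.0105% in wild type. The part of these shifts in the results below was not tested.

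Wild-type stem cells expressed nearly all of the family. A mean of at least 10 normalised counts (reads scaled to a common depth) was reached by 124 of the 139 members in wild type, and 58 reached 1000. Together the 139 members took 0.353% of the counts in the knockout-labelled arm, against 0.465% and 0.464% in wild-type libraries 1 and 2 and 0.388% and 0.389% in libraries 3 and 4. In bulk RNA, fewer cells of a type and less RNA per cell cannot be told apart. Per kilobase of exon, the 125 members whose mean over both arms was at least 10 had a median wild-type level of 274 normalised counts, with quartiles of 158 and 511. Over all 17685 features of that mean the median was 353.

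Zfp706, a very small protein with 1 finger, had the highest level per kilobase in wild type, at 2461 normalised counts per kb. It stood at 7475 normalised counts in the knockout-labelled arm, against 9331, 9541, 12354 and 12221 in the wild-type libraries. The arm mean thus lay below all 4 libraries, and the authors' deposited table did not call the gene. Such a position is common. Of all 17685 features with a mean of at least 10, 40.1% lay below all 4 libraries and 38.6% above. Zfp740 followed at 1639 per kb, Zfp664 at 1569 and Zfp608 at 1355. The other members among the 10 highest were Zfp869 at 1027 per kb, Zfp871 at 930, Zfp687 at 898, Zfp646 at 861, Zfp828 at 858 and Zfp637 at 832. Zfp828 is the older symbol of Champ1, which in human cells acts in chromosome alignment at mitosis. KRAB letters were found in 2 of these 10 proteins, Zfp869 and Zfp871. None of the 10 was called by the authors' deposited table. Zfp871, Zfp687, Zfp646 and Zfp828 overlap a feature on the opposite strand, so their counts are uncertain. The order is that of the mean over all 4 libraries, and several neighbours do not differ beyond the gap between the library pairs. Zfp740 and Zfp664 change places in libraries 3 and 4, as do Zfp646 and Zfp828, while Zfp871 is above Zfp869 in libraries 1 and 2 and leaves the 10 highest in libraries 3 and 4.

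At the other end, 15 members stayed under 10 normalised counts in wild type, and 4 of them (Zfp616, Zfp640, Zfp735 and Zfp872) had 0 reads in every wild-type library. A count of 0 in one library allows a level of up to 2.82 to 3.16 normalised counts, taking 3 reads as the floor, and this covers counting error only. Zfp750, a regulator of epidermal differentiation, had 1 read in the knockout-labelled arm and 7 in wild type, a ratio of wild type over knockout-labelled arm of 5.28 with an exact 95% Poisson interval of 0.679 to 238. Zfp781 had 0 reads in the knockout-labelled arm and 17 in wild type. The wild-type level was 4.28-fold above a floor of 3 reads over that arm, which leaves out counting error in wild type. The wild-type libraries stood at 9.47, 4.19, 0 and 3.76 normalised counts. Zfp781 was not called (adjusted p 0.477 by the authors' deposited table). It shares 96.3% of its 50-base words with other genes, most with Gm3055, so these reads are hard to assign. Of the 139 members, 10 have no test value in the authors' deposited table. Only 1 member, Zfp648, with 10.9 normalised counts in the knockout-labelled arm and 9.86 in wild type, reached a mean of 10 over both arms without reaching 10 in wild type.

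Protein sequence was read by translating the longest open reading frame of the GENCODE transcripts, which gave a protein for 135 members. At least 1 finger was found in 130 of them, with a median of 10 and a maximum of 33, in Zfp619. KRAB letters were found in 83 and not in 52. The median number of fingers was 12 in proteins with KRAB letters and 7 in those without. The letters used for KRAB were widened after the values of the members had been seen, because the first pattern, with 65 proteins, missed some that hold both ends of the KRAB A box.

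The comparison between the arms asks which of these genes differ in stem cells labelled as lacking Dnmt3a. By the authors' deposited table, 129 members were tested, and 1 rose while 6 fell (adjusted p under 0.05). That is 5.43% of the tested members, where 6.84% of all 21778 tested features were called. By direction, 0.775% of the members rose, against 3.15% of all features, and 4.65% fell, against 3.7%. Among features with a mean over both arms of at least 50, where all 7 called members lie, 6.71% were called, 3.45% rising and 3.26% falling. The share of members called was therefore near the background. At least 20% of the 50-base words of the longest transcript occur in another gene for 17 members, whose counts are uncertain, and among the 114 tested members below that share 1 rose and 4 fell. The widened KRAB letters are in all 7 called genes and in 76 of the 129 tested members, and the first, narrower letters in 5 of the 7 (not in Zfp759 and Zfp879) and in 58 of the 129.

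**Figure D1:**
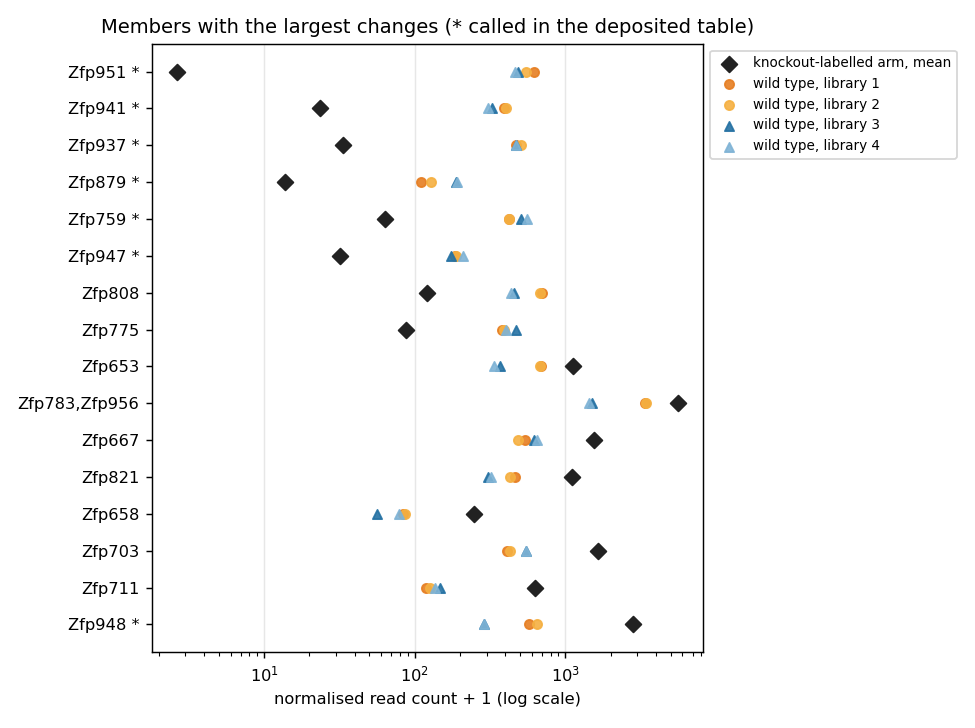
Normalised read count plus 1 (log axis) of the 16 members called or most changed, with the mean of the knockout-labelled arm as diamonds and each wild-type library as a circle (libraries 1 and 2) or triangle (libraries 3 and 4). The diamond of Zfp951 stands at 1.65 normalised counts before the 1 is added, against 465 to 618 in the wild-type libraries, and that of Zfp948 at 2798, above all 4 libraries.

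Zfp951 showed the widest gap of the family. It encodes a KRAB protein of 451 residues with 10 fingers (chromosome 5, 105242187 to 105289087, mm9). It stood at 1.65 normalised counts in the knockout-labelled arm, against 618, 546, 484 and 465 in the wild-type libraries. The 5 reads of the whole knockout-labelled arm face 2112 wild-type reads, a ratio of wild type over knockout-labelled arm of 319 with an exact 95% Poisson interval of 136 to 983 that covers counting error only. The authors' deposited table gives a log2 fold change of -7.64, which is 199-fold lower, with an adjusted p of 1.53e-08. With 1 added to each normalised count the log2 difference was also -7.64, whereas nothing was added for the ratio of 319. Little of its sequence is shared: 1.20% of the words of 50 bases in its longest transcript occur in another gene.

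Zfp941 (chromosome 7, 147995576 to 148008077) and Zfp937 (chromosome 2, 150043835 to 150070610) fell by similar amounts. Zfp941 was at 22.4 normalised counts in the knockout-labelled arm, against 389, 402, 327 and 308 in wild type, a log2 fold change of -3.90 (adjusted p 0.00137) by the authors' deposited table. Zfp937 was at 32.3 in the knockout-labelled arm, against 468, 507, 473 and 473 in wild type, a log2 fold change of -3.83 (adjusted p 0.00156) by the authors' deposited table. The arm mean of both genes was below every wild-type library. Zfp937 shares 29.4% of its 50-base words with other genes, most with Zfp442, and overlaps the opposite-strand feature HAG_024038, so its count is uncertain.

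Zfp879 (chromosome 11, 50645537 to 50655054) was at 12.9 normalised counts in the knockout-labelled arm, against 109, 127, 186 and 190 in wild type. Its log2 fold change was -3.44 (adjusted p 0.00579) by the authors' deposited table, and the wild-type pairs themselves differed, so that the log2(count + 1) difference was -3.10 with only libraries 1 and 2 and -3.77 with only libraries 3 and 4. Zfp759 (chromosome 13, 67229164 to 67242723), with 19 fingers, was at 62.3 in the knockout-labelled arm, against 420, 424, 508 and 558 in wild type. These 2 genes also had arm means below every wild-type library. The authors' deposited table gives Zfp759 a log2 fold change of -2.91 (adjusted p 0.0194). Zfp947 (chromosome 17, 22281326 to 22302944) was at 31.0 in the knockout-labelled arm, against 185, 187, 174 and 208 in wild type, and its log2 fold change of -2.56 came with adjusted p 0.0492 by the authors' deposited table, just inside the threshold. It shares 20.05% of its 50-base words with other genes, most with Zfp995, so its count is uncertain.

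Zfp948 was the member that rose (chromosome 17, 21704010 to 21725649). It encodes a KRAB protein with 15 fingers and lies in the same run of zinc finger genes as Zfp947. It reached 2798 normalised counts in the knockout-labelled arm, against 572 and 645 in wild-type libraries 1 and 2 and 288 and 288 in libraries 3 and 4. The authors' deposited table gives a log2 fold change of 2.64, or 6.23-fold, with an adjusted p of 0.0362. On the log2(count + 1) scale the difference was 2.20 when only libraries 1 and 2 were used and 3.27 with only libraries 3 and 4.

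The bases just upstream of the genes are shown for the 3 largest falls and the rise, because DNA methyltransferases act on CG dinucleotides, which are printed in capitals. Each line gives 250 bases before the RefSeq transcript start in GRCm38.p6, 5′ to 3′ on the strand of the gene. Zfp951 has 2 RefSeq starts, of which 1 is shown. The start used to count the reads may differ, and no methylation was measured here.
Zfp951, chr5:104860069-104860318, minus strand: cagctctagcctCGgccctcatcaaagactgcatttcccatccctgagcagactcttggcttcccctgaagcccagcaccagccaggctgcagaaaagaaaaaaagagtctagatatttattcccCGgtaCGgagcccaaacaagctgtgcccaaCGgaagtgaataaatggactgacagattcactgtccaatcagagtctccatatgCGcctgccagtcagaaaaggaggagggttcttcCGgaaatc
Zfp941, chr7:140822179-140822428, minus strand: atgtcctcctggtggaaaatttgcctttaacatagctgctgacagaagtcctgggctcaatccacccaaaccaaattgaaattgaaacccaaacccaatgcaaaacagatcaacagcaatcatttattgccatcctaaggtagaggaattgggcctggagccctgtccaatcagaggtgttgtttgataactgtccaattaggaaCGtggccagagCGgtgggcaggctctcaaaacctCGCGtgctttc
Zfp937, chr2:150217849-150218098, plus strand: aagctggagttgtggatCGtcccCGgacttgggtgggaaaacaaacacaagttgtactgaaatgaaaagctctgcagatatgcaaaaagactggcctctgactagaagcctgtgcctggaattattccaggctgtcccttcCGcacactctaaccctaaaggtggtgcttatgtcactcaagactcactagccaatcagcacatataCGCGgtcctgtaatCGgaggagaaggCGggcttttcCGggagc
Zfp948, chr17:21566728-21566977, plus strand: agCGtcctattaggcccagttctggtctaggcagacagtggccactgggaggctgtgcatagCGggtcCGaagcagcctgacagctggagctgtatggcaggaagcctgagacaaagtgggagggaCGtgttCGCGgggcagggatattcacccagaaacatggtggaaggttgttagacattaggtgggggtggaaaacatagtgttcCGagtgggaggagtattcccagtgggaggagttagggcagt

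These windows hold 6 CG dinucleotides in Zfp951, 4 in Zfp941, 8 in Zfp937 and 7 in Zfp948. The windows of the other called genes hold 6 in Zfp759, 6 in Zfp879 and 4 in Zfp947. Over all 32851 RefSeq windows, read as CG on either strand, 92.1% hold at least 1, the median is 6 and 27.3% hold 15 or more. A window was found for 118 members, all with at least 1 CG and with a median of 9. Among the 105 measured members with a window, 0 of the 7 called genes had 15 or more, against 37 of the 98 not called. For features of the same mean level across the table, 14.5% of the 1279 with under 5 CG were called, 7.79% of the 3274 with 5 to 14 and 5.80% of the 5224 with 15 or more.

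**Figure D2:**
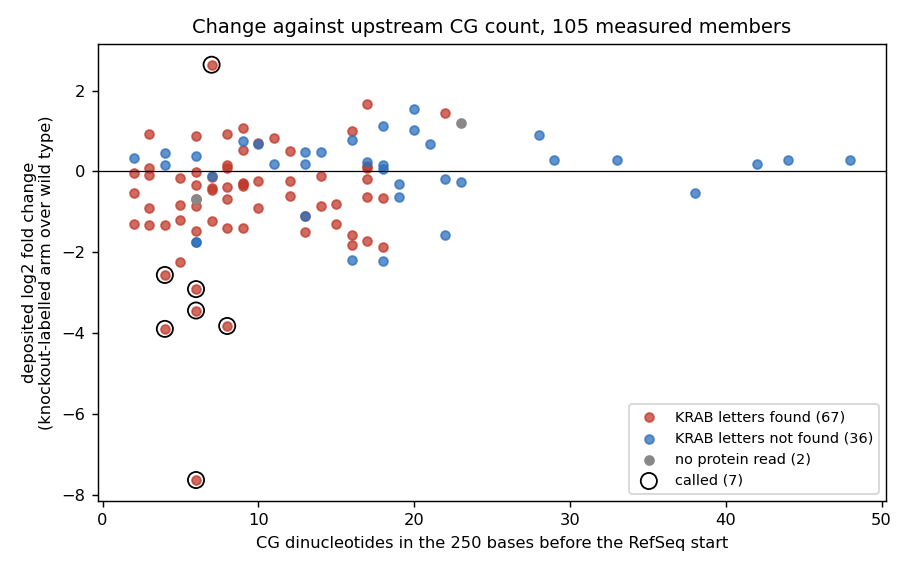
Log2 fold change of the knockout-labelled arm over wild type by the authors' deposited table against the number of CG dinucleotides in the 250 bases before the RefSeq start, for 105 measured members, coloured by whether KRAB letters were found. The 7 called members, circled, all lie between 4 and 8 CG.

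The median log2 fold change by the authors' deposited table was -0.31 for the 14 measured members with under 5 CG and -0.36 for the 54 with 5 to 14. It was 0.08 for the 37 with 15 or more. The same 3 medians over all features with a window were -0.26, -0.18 and 0.08. KRAB letters moved with the CG number: the median was 8 CG in 67 members with KRAB letters and 18 in 36 without. Among members with 15 or more CG, the 14 with KRAB letters had a median of -0.65 by the authors' deposited table and the 22 without had 0.22.

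Across the family, lower values were more frequent than higher ones. By the authors' deposited table, 78 of 129 members had a negative log2 fold change and 51 a positive one, with a median of -0.26 and quartiles of -1.11 and 0.28, where all tested features had a median of -0.10. The 15 tested members with at least 20% of shared words, whose counts are uncertain, had a median of -1.11 by the authors' deposited table with 12 negative, and the other 114 had -0.19 with 66 negative. On the log2(count + 1) scale the 125 measured members had a median of -0.24, beside -0.04 over all features of the same mean. The arm mean lay below all 4 wild-type libraries for 67 of the 125 (53.6%), against 40.1% of all 17685 features, and above all 4 for 37 (29.6%), against 38.6%. It was at least 2-fold below the wild-type mean for 34 members (27.2%, against 19.7% of all features) and at least 2-fold above it for 10 (8%, against 16.4%). Scaling by total counts made these 47 and 6 of 124, and moved the median of all features to -0.38 and that of the members to -0.59, which left the members 0.21 under all features, compared with 0.20 before.

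The values were also split by KRAB letters, and the split depends on the letters used. Either pattern can miss a KRAB domain, so the group without the letters may still hold some. With the widened letters, of 76 tested members with KRAB letters, 56 had a negative log2 fold change by the authors' deposited table and 20 a positive one, with a median of -0.50. Of 50 tested members without them, 20 were negative and 30 positive, with a median of 0.17. The 15 tested members with at least 20% of shared words, whose counts are uncertain, were kept in this split. Most of those have KRAB letters. With the first, narrower letters, 39 of 58 members with them were negative, with a median of -0.34 by the authors' deposited table, and 37 of 68 without them, with a median of -0.15, so the group without KRAB letters changes sign with the pattern. The difference between these groups was not tested, since genes are not replicates of a condition. On the log2(count + 1) scale the 74 measured members with KRAB letters had medians from -0.45 against libraries 3 and 4 to -0.68 against libraries 1 and 2, and -0.92 with scaling by total counts. The 48 without had 0.21 and 0.08 against the same pairs. With total counts they had -0.15, which is negative only because that scaling moves all features, to a median of -0.38.

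**Figure D3:**
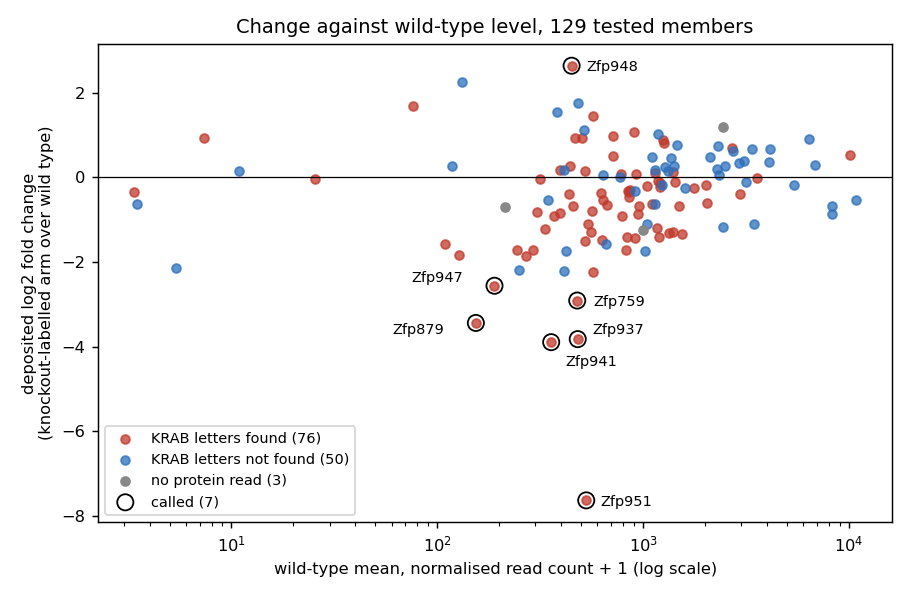
Log2 fold change of the knockout-labelled arm over wild type by the authors' deposited table against the wild-type mean (normalised read count plus 1, log axis) for 129 tested members, coloured by whether KRAB letters were found. Circles mark the 7 called members, and 56 of the 76 members with KRAB letters lie below 0, against 20 of the 50 without.

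Wild-type level differed between these groups too: the median was 219 normalised counts per kb with KRAB letters and 514 without. Within one band of wild-type level, from 500 to 2000 normalised counts, the 45 members with KRAB letters had a median log2 fold change of -0.47 by the authors' deposited table (33 negative, 12 positive) and the 18 without had 0.11 (7 negative, 11 positive), with the widened letters. The groups still differed in level within the band, with a median of 858 normalised counts with KRAB letters and 1142 without. Across the 125 measured members the deposited log2 fold change correlated with the wild-type level per kb with a Spearman rho of 0.33, and with the number of fingers with a rho of -0.19 over 122. Both describe genes that share the same libraries, and the first shares the wild-type value on both axes.

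The 202 rows for other numbered zinc finger genes, Zfp1 to Zfp599, which the choice of members did not use, were read in the same way. Of 192 tested, 2 rose and 9 fell by the authors' deposited table, or 5.73%, with a median log2 fold change of -0.32. With the widened KRAB letters 67 of 87 were negative, with a median of -0.57 by the authors' deposited table, and without them 51 of 105 were negative, with a median of 0.06. The 2 sets are measured in the same libraries, so they are not independent samples of the condition.

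Several further members had large differences without passing the threshold of the authors' deposited table. Zfp711, an X-linked gene whose human counterpart is linked to intellectual disability, was at 627 normalised counts in the knockout-labelled arm, against 118, 126, 146 and 135 in wild type. Its log2 fold change of 2.25 came with adjusted p 0.0928 by the authors' deposited table. Zfp703, a transcriptional corepressor outside the KRAB group, was at 1641 in the knockout-labelled arm, against 412, 426, 548 and 548 in wild type (log2 fold change 1.76, adjusted p 0.242 by the authors' deposited table). Both arm means lay above every wild-type library, as did those of 38.6% of all features with a mean of at least 10. Zfp658 was at 245 in the knockout-labelled arm, against 83.1, 85.8, 55.3 and 77.9 in wild type, with a log2 fold change of 1.68 (adjusted p 0.281) by the authors' deposited table. Zfp821, Zfp667, Zfp653 and the joined row of Zfp783 and Zfp956 completed the 8 largest positive values, with log2 fold changes of 1.53, 1.44, 1.12 and 1.20 by the authors' deposited table.

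Zfp808 and Zfp775 had the largest negative values that were not called. Zfp808 was at 119 normalised counts in the knockout-labelled arm, against 695, 679, 459 and 439 in wild type, with a log2 fold change of -2.23 (adjusted p 0.0953) by the authors' deposited table. It shares 43.1% of its 50-base words with other genes, most with its neighbour Zfp934, so its count is uncertain. Zfp775 was at 86.4 in the knockout-labelled arm, against 382, 390, 472 and 406 in wild type, with a log2 fold change of -2.22 (adjusted p 0.0982) by the authors' deposited table. Both arm means lay below every wild-type library, as did those of 40.1% of all features with a mean of at least 10.

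A pair of members with a known part in silencing retroviral elements in mouse cells were looked up after the values were seen. Zfp809, which recognises the primer binding site of some retroviruses, was at 2221 normalised counts in the knockout-labelled arm, against 1562, 1543, 933 and 1003 in wild type, and was not called (log2 fold change 0.82, adjusted p 0.744 by the authors' deposited table). Zfp932 was at 1215 in the knockout-labelled arm, between wild-type libraries 1 and 2, at 1635 and 1489, and libraries 3 and 4, at 717 and 727. It shares 45.2% of its 50-base words with other genes, most with Gm15446.

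The listed partners of KRAB proteins did not pass the threshold in either direction. All 27 corepressor and heterochromatin genes listed have a test value, and 0 rose and 0 fell by the authors' deposited table, where 6.84% of all features were called. Their median log2 fold change there was -0.38, with 17 negative and 10 positive and a smallest adjusted p of 0.168. The list includes Dnmt3a, the gene named in the label of the arm. Sumo2 enters it as a row joined with Mir684-1, at 241, 63.9, 97.3 and 222 normalised counts in wild-type libraries 1 to 4. Those values differ within each library pair, so that row is uncertain. Trim28, the corepressor that KRAB domains bind, was at 18789 normalised counts in the knockout-labelled arm, against 25075, 25386, 24550 and 24696 in wild type. Setdb1, which methylates histone H3 at the sites Trim28 occupies, was at 1946 in the knockout-labelled arm, against 4650, 4590, 3368 and 3252 in wild type. The arm means of both were below every wild-type library, as were those of 40.1% of all features with a mean of at least 10. Their log2 fold changes were -0.41 (adjusted p 0.924) and -1.02 (adjusted p 0.633) by the authors' deposited table. The lowest of the list was Uhrf1, which guides maintenance methylation, at -1.95, and the highest was Chd3, a chromatin remodeller, at 1.15 by the authors' deposited table.

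The members are spread over 19 chromosomes, with 31 on chromosome 7, 19 on chromosome 17, 17 on chromosome 8 and 11 on chromosome 13. Taking runs of at least 3 members whose starts lie at most 500 kb apart, 70 members fell into 13 runs. The 66 tested members in runs had a median log2 fold change of -0.57 by the authors' deposited table, with 47 negative and 19 positive. The 63 outside runs had 0.02, with 31 negative and 32 positive. KRAB letters were found in a larger share of the members in runs than of those outside. The part of this in the difference was not tested. By the authors' deposited table, 3 of 66 (4.55%) were called in runs and 4 of 63 (6.35%) outside, against 6.84% of all 21778 tested features. Counts this small cannot show whether calls follow the runs.

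**Figure D4:**
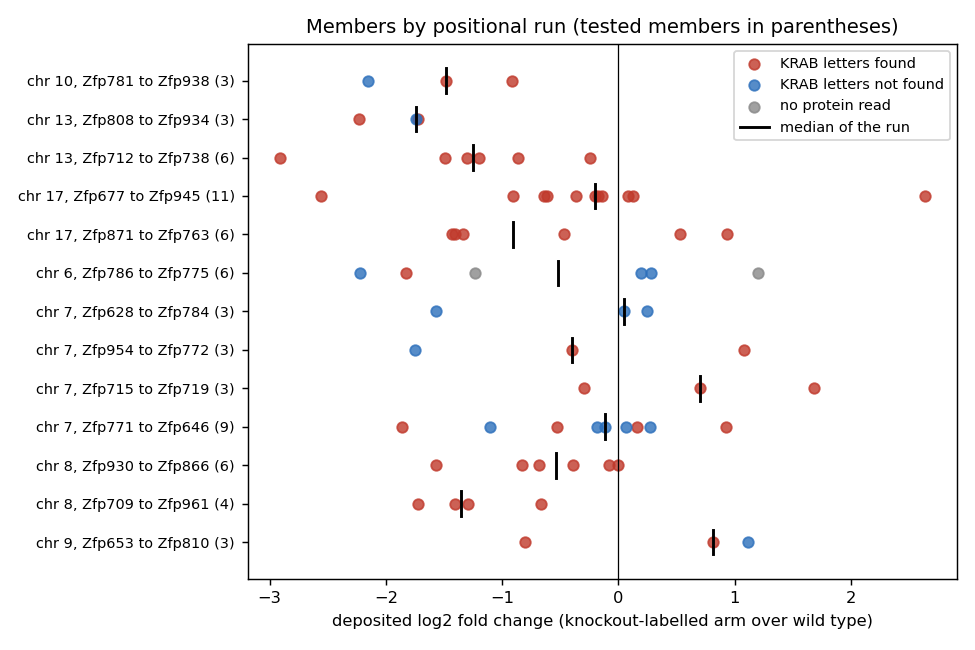
Log2 fold change of the knockout-labelled arm over wild type by the authors' deposited table for each tested member of the 13 positional runs, labelled by chromosome and by the first and last tested member. All tested members of the runs on chromosome 10, on chromosome 13 and on chromosome 8 lie below 0, while the run of 11 on chromosome 17 spans -2.56 to 2.64.

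In 5 of the runs every tested member had a negative log2 fold change by the authors' deposited table. On chromosome 13 these were the run of Zfp808, Zfp935 and Zfp934 (62231250 to 62659959), with a median of -1.74, and the run from Zfp712 to Zfp738 (66772013 to 67784449, counting the silent Zfp640), with a median of -1.25 over 6 tested members. All 3 members of the first of these share much of their sequence with other genes (Zfp808 43.1% of 50-base words, Zfp934 40.1% and Zfp935 100%), as does the row of Rslcan18 and Zfp708 in the second (100%), so these counts are uncertain. Zfp759, which was called, lay at the low end of that second run at -2.91 and Zfp748 at the high end at -0.24, by the authors' deposited table. On chromosome 8 the 6 members from Zfp930 to Zfp866 had a median of -0.54 and ranged from -1.57 for Zfp964 to -0.01 for Zfp869, and the 4 from Zfp709 to Zfp961 a median of -1.35, by the authors' deposited table. On chromosome 10, Zfp781, Zfp873 and Zfp938 had a median of -1.48 by the authors' deposited table, although Zfp781 rests on 17 reads and on sequence that is mostly shared.

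The largest run held 11 genes on chromosome 17 (21520712 to 23004101), each with KRAB letters, and its members differed among themselves. It contains both Zfp948, which rose, and Zfp947, which fell, and its median by the authors' deposited table was -0.20 with 8 negative and 3 positive. A second run on chromosome 17, from Zfp871 to Zfp763, ranged from -1.44 for Zfp870 to 0.93 for Zfp811 by the authors' deposited table. On chromosome 7 the run from Zfp715 to Zfp719 had a median of 0.70 over 3 tested members, and on chromosome 9 the run from Zfp653 to Zfp810 one of 0.82, by the authors' deposited table. The 9 members from Zfp771 to Zfp646 on chromosome 7 had a median of -0.12 there, between -1.86 for Zfp688 and 0.93 for Zfp747, which shares 36.9% of its 50-base words with other genes. The remaining runs on chromosome 7 ranged from -1.57 for Zfp784 to 0.24 for Zfp628 and from -1.75 for Zfp773 to 1.08 for Zfp954, and the one on chromosome 6 from -2.22 for Zfp775 to 1.20 for the row of Zfp783 and Zfp956, by the authors' deposited table.

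The wild-type libraries fell into 2 pairs, and the members differed between them in part. A chi-square test of homogeneity per member, divided by its degrees of freedom, had a median of 0.758 for libraries 1 and 2 and 0.50 for libraries 3 and 4, but 13.2 for libraries 1 and 3. The means were 1.34 and 1.46 for the same 2 pairs and 74.7 for libraries 1 and 3. Libraries within a pair thus differed by somewhat more than sampling noise, but far less than libraries of different pairs. Each pair counts as 1 sample, given above library by library. Of 123 members with a wild-type mean of at least 50, 90 were lower in libraries 3 and 4 than in libraries 1 and 2 and 33 higher. The median log2 difference, libraries 3 and 4 minus libraries 1 and 2, was -0.18, beside 0.04 over all 14304 features of that level. At least 2-fold lower were 5 members (4.07%, against 5.81% of all features) and at least 2-fold higher 0 (against 1.88%).

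Zfp692, a factor outside the KRAB group, had the widest gap, at 436 and 382 normalised counts in libraries 3 and 4, against 1805 and 1801 in the other pair. The knockout-labelled arm stood at 1552 and so lay between the pairs. Zfp783 with Zfp956 was at 1494 and 1444 in libraries 3 and 4, against 3404 and 3429 in the other pair. Zfp760, Zfp932 and Zfp948 were the other members past 2-fold, with log2 differences of -1.15, -1.11 and -1.08. For these 5 genes the size of the difference from the knockout-labelled arm therefore depends on the pair used. Against libraries 1 and 2 and against libraries 3 and 4, Zfp948 was higher in the arm (log2 differences of 2.20 and 3.27). The row of Zfp783 and Zfp956 was higher against both pairs too (0.71 and 1.93). The sign changed between the same pairs for Zfp692 (-0.22 and 1.92), Zfp932 (-0.36 and 0.75) and Zfp760 (-1.08 and 0.07). Zfp760 had -0.62 against all 4 libraries. The largest positive differences between the pairs were 0.67 in Zfp879, 0.52 in Zfp622, which acts in ribosome assembly in human cells, 0.39 in Zfp703, 0.38 in Zfp655 and 0.38 in Zfp706.

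**Figure D5:**
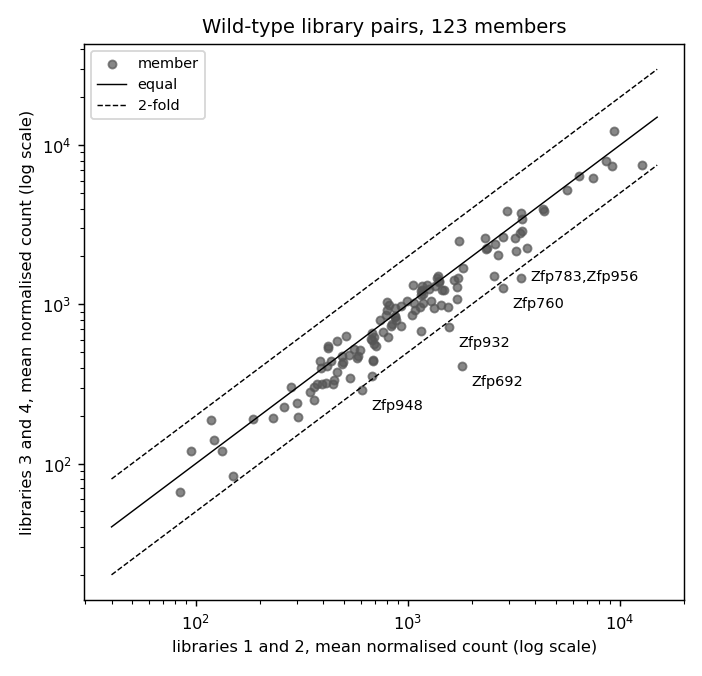
Mean normalised count in wild-type libraries 3 and 4 against that in libraries 1 and 2 (log axes) for 123 members with a wild-type mean of at least 50, with lines of equality and of 2-fold difference. The 5 labelled members lie below the lower 2-fold line, and 0 lie above the upper one.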

How the data were processed

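The read counts per gene used here were deposited by the authors for 4 wild-type libraries, and the submitters' processing notes list build mm9 and the tool DESeq without saying how each was used. No source used here names the aligner, the counting tool or the gene models. The TruSeq kit named in the labels does not mark strand. An opposite-strand feature overlaps 20 of the members, whose counts may hold reads of that feature and are uncertain. Those named here include Zfp622, Zfp628, Zfp646, Zfp653, Zfp687, Zfp738, Zfp750, Zfp808, Zfp809, Zfp828, Zfp871, Zfp937 and the row of Zfp783 and Zfp956. The FPKM column deposited by the authors is, in every library, count over exon kb over the same constant, 50, so it served only to obtain exon lengths. The knockout-labelled mean is an unscaled score deposited by the authors: a mean of raw counts over 4 columns. The 8 per-library columns with no sample here were not used. The log2 fold change deposited by the authors runs as knockout-labelled arm over wild type, as its values show. The p-value deposited by the authors is read as adjusted, since 17567 of 21778 tested features share a value with another.

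Size factors (median of ratios) for the wild-type counts were 0.951, 0.955, 1.05 and 1.06. The knockout-labelled mean was placed on that scale by the median offset of 0.399 (log2, SD 0.003 over 11936 features) between the deposited fold change and the ratio of means. Only 1 arm has labelled libraries, so no test between arms was run, and "called" means an adjusted p under 0.05 by the authors' deposited table. Nothing shows that its replicates came from separate animals, so its p-values may measure technical spread only. A member counts as measured at a mean over both arms of 10 normalised counts, and log2 differences use a pseudocount of 1. Fingers were counted as C-x(2-4)-C-x(12)-H-x(3-5)-H in translated GENCODE vM21 transcripts, in place of RefSeq proteins. KRAB letters were a match to either of 2 patterns. The first, narrower pattern covers the start of the A box only, and the second its start and its LY-x-x-VM end. Shared sequence is the share of 50-base words of the longest transcript found in another gene.

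Named genes were all called members, the 8 largest rises and 8 largest falls with a mean of at least 50, the 10 highest per kb, the 5 largest gaps each way between library pairs, and the ends of each run; others were named after their values were seen. The members and lists were chosen with earlier results of these data known. The scaling code was tested on simulated data. Alternatives changed scaling (including edgeR 4.0.16 TMM), minimum level, pseudocount, threshold, run gap and the libraries used. Analyses used Python 3.11.15, pandas 2.3.3, scipy 1.17.1 and Biopython 1.88.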

Additional observations from a re-analysis of the deposited data

Results flagged for a closer look

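Zfp937 was singled out because 1 of its 4 wild-type libraries stood apart: library 2 was at 507 normalised counts, against 468, 473 and 473 in libraries 1, 3 and 4, a gap of 0.863 of the whole range. Chance gives about 1 such case in 20 groups of independent values, and 46 named members were examined. The wild-type libraries fell into pairs, so that rate may not hold here. All 4 values exceed the 32.3 normalised counts of the knockout-labelled arm, and the log2 difference was -4.18 to -3.83 in every setting run.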

How the results depend on the processing

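By the authors' deposited table, the count of 7 called members, of 129 tested, was 4 at an adjusted p under 0.01, with 0 higher. At 0.10 it was 10, with 2 higher and 8 lower. Of all 21778 tested features, 382 were higher and 387 lower at 0.01, and 926 and 1117 at 0.10. The median log2 difference of -0.24 was -0.59 with scaling by total counts and -0.34 against libraries 1 and 2 alone, and leaving out 1 library gave -0.27 to -0.21. The 44 members at least 2-fold apart became 11 at 4-fold, with 42 to 45 when 1 library was left out. The 124 members counted in wild type stayed at 124 to 125 when 1 library was left out. The median difference between wild-type pairs, -0.17 at a minimum of 10, was -0.24 with total counts and -0.15 with no minimum, and -0.17 to -0.14 when 1 library was left out. Leaving out 1 library keeps the other of its pair, so these ranges cannot show variation between samples. Runs held 55 members at a gap of 250 kb and 75 at 1 Mb, against 70. The cause of these moves was not tested. No called member changed sign in the 8 other settings run on the 48 named members, and 6 members that were not called did, of which Zfp628 and Zfp740 only with total counts, which moved the median of all features to -0.38. The KRAB medians under other scalings and library pairs were added after seeing the data. No paired analysis was possible because only the wild-type arm has labelled libraries. Members with few reads limit what depth can show: with the smallest called count, Zfp951, resting on 5 reads in the knockout-labelled arm, folds of silent genes were not measurable.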
